A study of Mus musculus with 10 samples.

Results

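The comparison described here set mouse acute myeloid leukaemia (AML) that had lost either of 2 subunits of Polycomb repressive complex 2 (PRC2) against leukaemia that kept both. All 10 arrays of the series entered it, 7 null arrays (4 Ezh2-null and 3 Eed-null, with each genotype given equal weight) against 3 WT arrays. Among 20564 genes tested, 350 moved the same way in every null array, which here means that all 7 null arrays lay above every WT array (170 genes) or below every WT array (180 genes).

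All leukaemias, WT included, carried the MLL-AF9 fusion delivered by an MLL-AF9-ires-GFP retrovirus, on a C57B/6 background. Recipients had received 600 cGy and 100000 cells of replated leukaemic colonies, with pIpC 2 to 3 weeks after that to switch on Cre. Live bone marrow cells of the diseased mice were sorted by scatter, propidium iodide exclusion, GFP (the retrovirus) and YFP (cells in which Cre had acted). Total RNA was amplified and hybridised, and the submitters call the arrays biological replicates. The groups thus differed by genotype alone in the labels, which are WT, Ezh2-null and Eed-null. The labels used here give neither the driver of Cre, nor the ages of the mice, nor which arrays came from the same colony or donor.

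PRC2 is a histone methyltransferase that places methyl groups on lysine 27 of histone H3 and thereby holds developmental genes silent. Ezh2 is its catalytic subunit, for which Ezh1 can stand in, while Eed is needed by complexes built on either enzyme. PRC1, to which Bmi1 belongs, can read the mark and ubiquitinates histone H2A, and both complexes have been studied in AML for their hold over self-renewal and the Cdkn2a locus.

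The median intensity of an array lay between 137 and 144, and correlations between arrays of 1 group, across genes, were 0.956 to 0.989. Markers of the labelled leukaemia were high, with Mpo at log2 intensities of 12.58 to 13.55, Ptprc at 11.50 to 12.37, Hoxa9 at 11.11 to 12.19 and Meis1 at 10.74 to 11.59. Itgam (8.53 to 11.15) and Kit (8.02 to 8.86) also lay above the median gene on all 10 arrays. WT replicate 3 and Eed-null replicate 1 stood at opposite ends of the first principal component (28.6% of the variance), at -45.31 and 63.38, and results that rest on them are set beside values without them. Levels here are log2 intensities of 1 probe set per gene, and differences are log2 values of null minus WT with limma's standard error (SE).

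The targeted genes were examined first. Ezh2 read 10.25, 9.35 and 10.44 on the WT arrays, against 9.19, 9.21, 9.36 and 8.91 with Ezh2 lost and 9.60, 9.71 and 9.49 with Eed lost. WT replicate 2 thus lay within the range of the null arrays, and the pooled difference of -0.63 (SE 0.23) did not pass the test (limma adjusted p = 0.692). Eed read 10.52, 10.20 and 10.65 in WT, against 10.79, 10.24, 10.40 and 10.30 with Ezh2 lost and 8.69, 8.34 and 8.67 with Eed lost. The Eed transcript was thus low in the Eed-null arrays alone, 1.86 below the Ezh2-null arrays on the log2 scale (Eed-null minus Ezh2-null -1.86, limma adjusted p = 0.00342). Where the probe sets lie relative to the deleted exons was not known, so a retained signal does not check the labels. The other PRC2 core genes Suz12 (pooled difference -0.10, adjusted p = 0.95) and Ezh1 (-0.02, adjusted p = 0.993) gave no call, and their signs changed under some alternatives (Ezh1 with quantile normalization).

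With either subunit lost, 3 genes were higher on all 7 null arrays and passed the test. These were Bmi1, a RING-finger subunit of PRC1, Bmpr1a, a receptor (type I) that binds bone morphogenetic proteins (BMPs), and Hebp1, a haem-binding protein. The average rise was 3.37-fold for Bmi1, 7.70-fold for Bmpr1a and 6.51-fold for Hebp1. They were the only genes without overlap to pass an adjusted p of 0.05 (Benjamini-Hochberg over all genes tested). The other call, Trim12a, was lower in the pooled comparison, but its values overlapped. In all 4 genes were called, 0.0195% of those tested, 3 of them higher (0.0146%) and 1 lower (0.00486%). At an unadjusted p under 0.05 there were 1366 genes (6.64%), 674 higher and 692 lower.

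The 250 bases just upstream of the start of each of these 3 genes are shown because they are promoters of the genes that rose in both null genotypes, and CG dinucleotides, which are dense in CpG islands and thus at many PRC2-bound promoters, are in capitals. The sequences are those of RefSeq in GRCm38.p6, printed 5′ to 3′ on the strand of the gene, at chr2:18676768-18677017 (plus strand) for Bmi1, chr14:34502547-34502796 (minus strand) for Bmpr1a and chr6:135168216-135168465 (minus strand) for Hebp1.
Bmi1: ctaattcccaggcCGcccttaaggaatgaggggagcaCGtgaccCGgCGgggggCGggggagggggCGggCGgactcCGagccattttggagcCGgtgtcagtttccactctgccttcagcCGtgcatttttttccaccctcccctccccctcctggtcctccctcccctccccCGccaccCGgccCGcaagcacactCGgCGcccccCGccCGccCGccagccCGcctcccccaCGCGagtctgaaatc
Bmpr1a: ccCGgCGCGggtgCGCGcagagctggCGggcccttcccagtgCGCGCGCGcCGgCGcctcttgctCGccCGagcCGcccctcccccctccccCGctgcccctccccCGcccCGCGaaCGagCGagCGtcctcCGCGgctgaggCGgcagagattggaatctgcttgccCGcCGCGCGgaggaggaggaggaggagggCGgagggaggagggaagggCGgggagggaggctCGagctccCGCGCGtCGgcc
Hebp1: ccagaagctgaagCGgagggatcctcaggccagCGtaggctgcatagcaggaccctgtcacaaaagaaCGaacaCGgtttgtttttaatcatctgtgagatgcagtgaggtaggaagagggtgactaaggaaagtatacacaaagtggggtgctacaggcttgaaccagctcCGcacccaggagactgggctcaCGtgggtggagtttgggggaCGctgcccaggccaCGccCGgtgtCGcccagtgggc

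The motif searched was CG, which reads the same on both strands, and 92.13% of the 32851 promoter windows of this length held at least 1 copy, with a median of 6. The Bmpr1a window held 36 copies and was 78.8% G or C, and 2.58% of all windows held as many or more. The Bmi1 window held 21 copies at 70.4% G or C (16.35% of windows held as many or more), and the Hebp1 window 10 copies at 57.6% (37.8%). These counts describe the letters of the windows, since no histone mark was measured here.

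Bmi1 read 8.62, 8.15 and 8.54 on the WT arrays, against 10.28, 10.18, 10.57 and 10.53 with Ezh2 lost and 9.76, 10.12 and 10.08 with Eed lost. Every null array was above every WT array, with a gap of 1.14 between the lowest null and the highest WT value. The pooled difference was 1.75 (SE 0.17, limma adjusted p = 0.00905), and the direct test of Eed-null minus Ezh2-null gave -0.41 (adjusted p = 0.548). A second probe set for Bmi1 differed by 1.80, again with no overlap.

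Bmpr1a read 7.12, 7.37 and 6.64 in WT, against 9.35, 9.88, 9.73 and 10.24 with Ezh2 lost and 10.93, 9.89 and 9.70 with Eed lost. Its gap of 1.98 was the widest of all genes tested. The pooled difference was 2.94 (SE 0.29, limma adjusted p = 0.00905), with 2.76 in Ezh2-null and 3.13 in Eed-null leukaemia (adjusted p = 0.737 for the direct difference of 0.37). Of its 6 probe sets, 4 had no overlap, with differences of 2.94, 3.51, 0.86 and 2.23, while the dimmer pair gave 0.45 and 0.50.

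Hebp1 read 6.66, 6.41 and 7.66 in WT, against 9.78, 10.02, 10.14 and 9.99 with Ezh2 lost and 9.17, 9.72 and 8.82 with Eed lost. WT replicate 3 was the highest WT array, and still 1.17 below the lowest null array. The pooled difference was 2.70 (SE 0.28, limma adjusted p = 0.00905), and the Eed-null arrays lay 0.74 below the Ezh2-null arrays on the log2 scale (Eed-null minus Ezh2-null -0.74, adjusted p = 0.516). Hebp1 had 1 probe set.

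Without WT replicate 3 and Eed-null replicate 1 together, the differences of these 3 genes were 1.86, 2.55 and 3.09, all called. Without WT replicate 1 their adjusted p-values were 0.0544 (Bmi1), 0.0715 (Bmpr1a) and 0.0947 (Hebp1), and without WT replicate 2 they were 0.071, 0.071 and 0.0932, with differences of 1.61 to 3.11. Without WT replicate 3 alone, all 3 were called. With the replicate number as a block, none of the 3 passed (limma adjusted p = 0.0857, 0.0857 and 0.116). Only Ezh2-null leukaemia has a replicate 4, so the block also sets that array aside. The differences, 1.73, 2.87 and 2.70, were the same as without it.

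Trim12a, a mouse relative of the retroviral restriction factor Trim5, read 9.58, 9.55 and 9.09 in WT, against 10.16, 9.02, 9.38 and 9.57 with Ezh2 lost and 5.44, 5.25 and 5.07 with Eed lost. It was low on the Eed-null arrays alone. The pooled difference of -2.01 (SE 0.23, limma adjusted p = 0.0208) averaged 0.12 in Ezh2-null with -4.15 in Eed-null leukaemia, and the direct difference between the null genotypes was -4.27 (adjusted p = 0.000138). Its neighbours Trim5 (Eed-null minus Ezh2-null -1.88) and Trim30d (-3.18) also differed between the null genotypes (both adjusted p = 0.00342), with pooled differences of -0.76 and -1.16 that were not called. Trim34a (0.85), Trim12c (0.40), Trim30a (0.30), Trim30b (0.21) and Trim6 (0.06) gave no pooled call, and the probe sets of Trim34a went from -1.06 to 0.89. Genes of this group are alike in sequence, so probe sets may be shared between them. With the 7 null arrays taken as 1 group, Trim12a had a limma adjusted p of 0.96, and it also lost its call when any single one of WT replicates 1 and 2, Ezh2-null replicates 3 and 4 and Eed-null replicates 2 and 3 was left out (adjusted p = 0.0549 to 0.175).

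**Figure D1:**
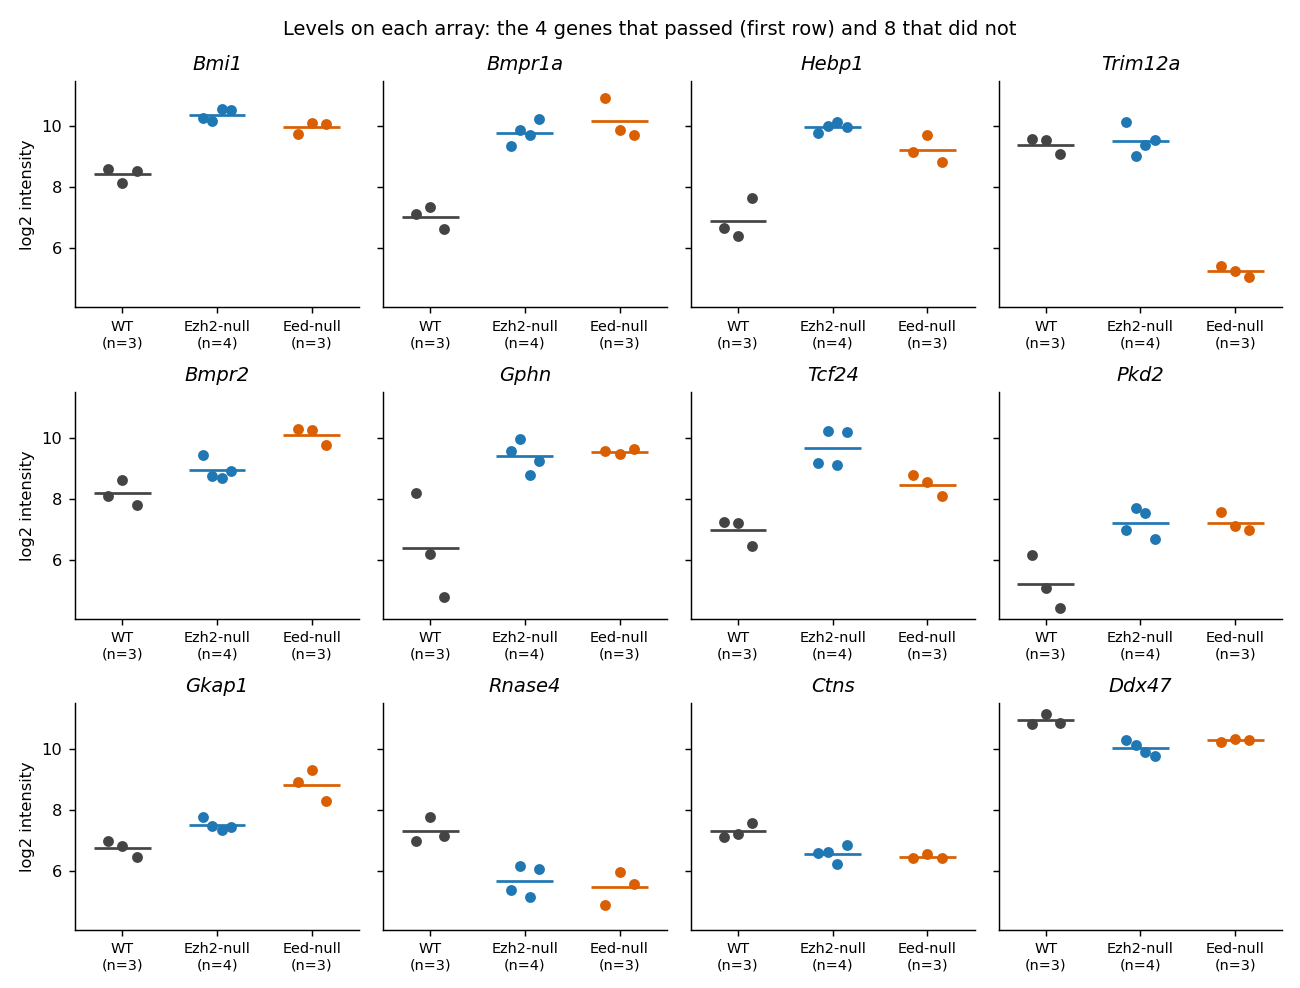
Log2 intensity (y axis) on each of the 10 arrays for the 4 called genes in the first row and 8 genes that were not called, with points for arrays, lines for group means, and WT (n = 3), Ezh2-null (n = 4) and Eed-null (n = 3) along the x axis. All null arrays lie above WT for Bmi1, Bmpr1a and Hebp1, and Trim12a is low in Eed-null alone.

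**Figure D2:**
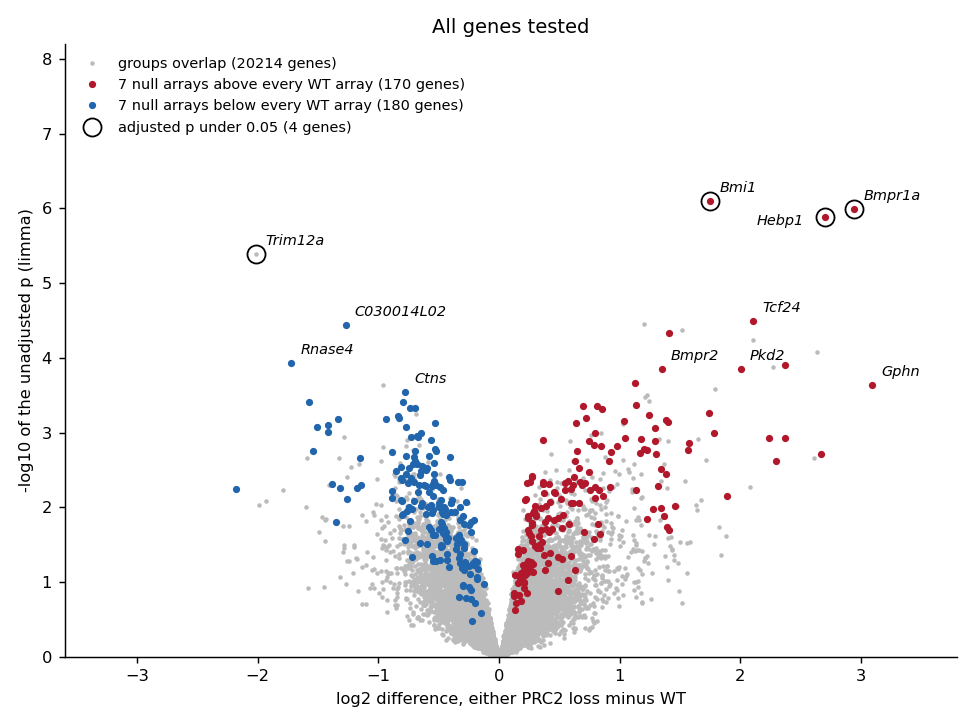
Pooled log2 difference of null minus WT (x axis) against -log10 of the unadjusted limma p (y axis) for all 20564 genes, with red and blue points for the 170 genes and 180 genes without overlap and open circles for the 4 calls. Bmi1, Bmpr1a and Hebp1 are red and circled at the upper right, and Trim12a is circled among the overlapping genes.

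The next genes by p without overlap, which did not pass, were of several kinds. Bmpr2, the type II receptor that pairs with Bmpr1a, read 8.08, 8.62 and 7.80 in WT, against 9.42, 8.75, 8.66 and 8.90 with Ezh2 lost and 10.28, 10.25 and 9.76 with Eed lost. The Ezh2-null arrays sat just above WT and the Eed-null arrays well above it. Its pooled difference was 1.35 (SE 0.23, limma adjusted p = 0.183) and that between the null genotypes 1.16 (adjusted p = 0.219). Its other probe sets gave 0.93 and 0.31, with overlap.

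Gphn, which encodes the scaffold protein gephyrin, had the largest log2 difference of all genes tested, 3.09 (SE 0.56, limma adjusted p = 0.252). Its values were 8.18, 6.18 and 4.76 in WT, against 9.58, 9.94, 8.77 and 9.24 with Ezh2 lost and 9.57, 9.45 and 9.61 with Eed lost. The WT arrays spread widely and the null arrays closely, and without WT replicate 1 the difference was 4.00 (adjusted p = 0.037), while without WT replicate 3 it was 2.29 (adjusted p = 0.294). Its other probe sets, at 1.35 and 1.33, did not overlap either. Pkd2, the cation channel polycystin 2, read 6.16, 5.06 and 4.40 in WT, against 6.96, 7.69, 7.54 and 6.66 with Ezh2 lost and 7.55, 7.11 and 6.96 with Eed lost. WT replicate 1 came closest to the null arrays, and the difference of 2.01 was the same in both genotypes (2.01 and 2.00, adjusted p = 0.183 pooled).

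Tcf24, a basic helix-loop-helix factor, read 7.23, 7.19 and 6.45 in WT, against 9.18, 10.21, 9.11 and 10.17 with Ezh2 lost and 8.76, 8.54 and 8.08 with Eed lost. The Ezh2-null arrays were highest, and the pooled difference was 2.11 (limma adjusted p = 0.106). Gkap1, a protein that anchors cGMP-dependent kinase, read 6.98, 6.81 and 6.45 in WT, against 7.76, 7.46, 7.34 and 7.42 with Ezh2 lost and 8.90, 9.29 and 8.28 with Eed lost. Here the order of the null genotypes was turned, with a pooled difference of 1.41 (adjusted p = 0.108) and a direct difference of 1.33 (adjusted p = 0.0975). Others above WT on every null array were 4633402D09Rik (2.37), Aldh5a1, a GABA-degrading dehydrogenase (1.14), Plaat3, a phospholipase (1.13), Plag1, a zinc-finger factor (0.81), and Mxd4, a partner of Max that opposes Myc (0.69), with limma adjusted p-values of 0.183 to 0.31. For Plaat3 and Plag1 a second probe set gave 1.28 and 1.47, while for Mxd4 the others gave -0.20, 0.17 and 0.01.

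On the lower side, Rnase4, a secreted ribonuclease, read 6.98, 7.77 and 7.13 in WT, against 5.35, 6.16, 5.12 and 6.05 with Ezh2 lost and 4.89, 5.96 and 5.57 with Eed lost. Its gap of 0.82 was the widest among lower genes, and its difference was -1.72 (SE 0.29, limma adjusted p = 0.183). Ctns, the lysosomal cystine exporter, read 7.12, 7.19 and 7.55 in WT, against 6.57, 6.62, 6.22 and 6.84 with Ezh2 lost and 6.41, 6.53 and 6.43 with Eed lost, a difference of -0.78 (adjusted p = 0.278). Both genes lay at like levels in the null genotypes. C030014L02 (-1.27, adjusted p = 0.106), AW557046 (-1.58), 4930550G17Rik (-0.74) and Ddx47, an RNA helicase (-0.79), were the other leading genes below every WT array, the last 3 with adjusted p = 0.31. C030014L02 was called without Ezh2-null replicate 3 (adjusted p = 0.0273), as Gkap1 was without Eed-null replicate 3 (0.0299), and Plag1 with the mean of its probe sets (0.00837). The other probe sets of Ddx47 gave -0.12 and -0.01.

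**Figure D3:**
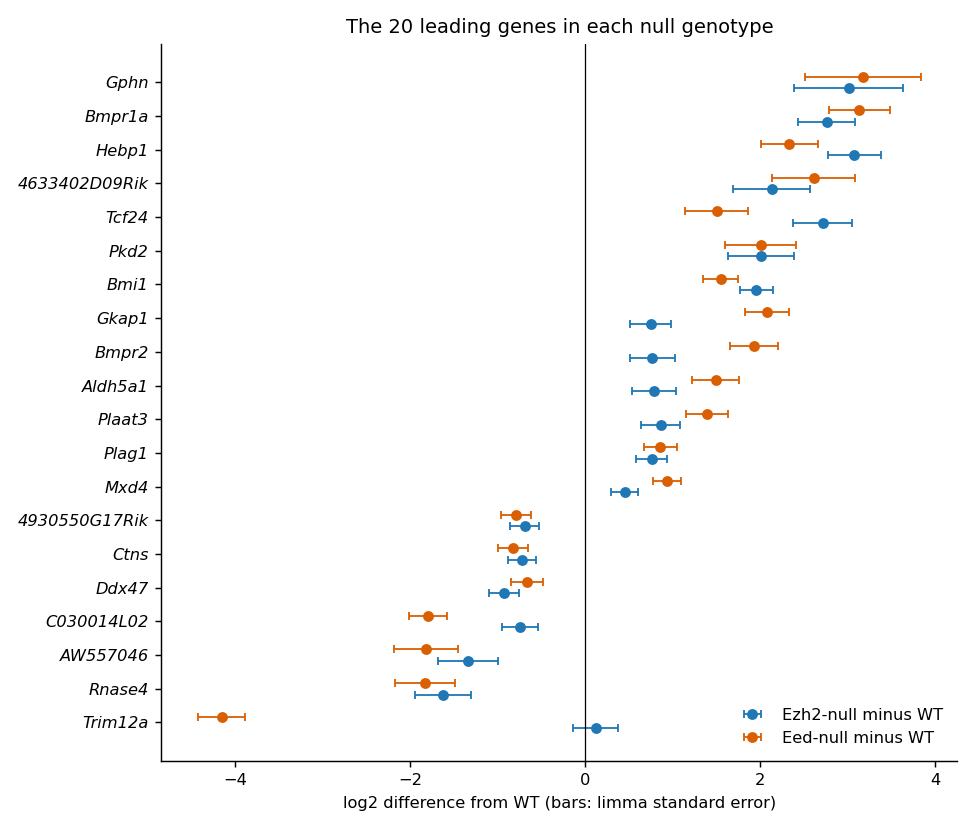
Log2 difference from WT (x axis) in Ezh2-null (blue) and Eed-null (orange) leukaemia for the 4 called genes and the 16 next in p without overlap, with bars for the limma standard error. Both genotypes share the WT arrays, and for Trim12a the Ezh2-null point lies at 0.12 and the Eed-null point at -4.15.

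The 350 genes without overlap were 1.70% of those tested, 0.827% above and 0.875% below WT. A looser reading, all 7 null arrays on 1 side of the WT mean, held for 2575 genes (12.5%), 1206 above (5.86%) and 1369 below (6.66%). Since the rule used these values, they are given as a description. The rule loosens when an array is left out, and 1301, 1228 and 905 genes met it without WT replicate 1, 2 and 3, and 565 without Ezh2-null replicate 1 as without Ezh2-null replicate 2. Just inside the threshold were D7Ertd526e and AW046457, with gaps of 0.0001 each, and just outside it were Cntn2 (0.0) and Ankrd23 (-0.0004). The 170 higher genes had a median difference of 0.54 (0.12 to 3.09), and 43 of them (25.3%) differed by over 1. The 180 lower genes had a median of -0.54 (-2.18 to -0.12), with 16 (8.89%) past 1 in size, against 216 (1.05%) of all genes. The rule itself favours large differences, so larger shares than among all genes follow from it.

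Higher and lower genes lay at different levels. Higher genes had a median WT level of 7.14, and 99 of them (58.2%) lay below the median gene at 7.45. The lower genes had a median WT level of 9.41, with 36 of 180 below the median gene. In the null arrays the medians lay closer together, at 7.86 for the higher and 8.82 for the lower genes. The rule used the WT values, which it takes low for higher genes and high for lower genes, so these levels are a description. The size of the difference from WT was larger in Eed-null than in Ezh2-null leukaemia for 123 (72.4%) of the higher and 142 (78.9%) of the lower genes, and for 62.5% of all genes. In the direct comparison of the null genotypes, which uses no WT array, 16 genes were called (0.0778% of those tested), 10 higher (0.0486%) and 6 lower (0.0292%) in Eed-null leukaemia, and none of the 350 was among them. At an unadjusted p under 0.05, 17 of the 170 higher and 20 (11.1%) of the lower genes differed between the null genotypes, against 9.18% of all genes.

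Probe sets that had played no part in choosing the 350 genes gave a second reading of the same RNA. Of the higher genes, 83 had a second probe set, which differed in the same direction for 70 (84.3%). It lay above every WT array for 18 (21.7%) and below every WT array for 1. Of the lower genes, 84 had one, with the same direction for 72 (85.7%) and no overlap for 8 (9.52%). Among all 9541 second probe sets, 0.912% lay above and 1.07% below every WT array, and 49.3% were higher in the null arrays. Probe sets of 1 gene share the array and can share sequence.

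Genes beside the 3 risers on the chromosome were chosen for description after their values were seen. Commd3, next to Bmi1, read 10.34, 9.52 and 10.004 in WT, against 10.38, 10.70, 10.74 and 10.61 with Ezh2 lost and 10.94, 10.60 and 10.46 with Eed lost. Mmrn2, next to Bmpr1a, read 6.38, 6.25 and 6.11 in WT, against 6.55, 7.80, 7.45 and 7.998 with Ezh2 lost and 7.14, 7.16 and 7.83 with Eed lost. Fam234b, next to Hebp1, read 8.37, 7.66 and 8.89 in WT, against 10.73, 8.91, 9.83 and 10.16 with Ezh2 lost and 10.12, 9.44 and 9.97 with Eed lost. None of these 3 genes overlapped, by differences of 0.68, 1.17 and 1.57, and none passed (limma adjusted p = 0.505, 0.417 and 0.41). The measured genes on the other side, Spag6 (0.12), 9230112D13Rik (0.18) and Gprc5d (0.02), overlapped with WT. Chchd7, beside Plag1, differed by 0.66 without overlap. Of 18149 genes placed, 320 were without overlap, and 14 pairs of these were next to each other, 12 of them in the same direction. How many such pairs would arise by chance was not estimated. Whether a probe set reads transcripts of both neighbours was not examined.

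Within 10 Mb of Ezh2, 4 of 167 measured genes had no overlap (2.40%, Nfe2l3, Sval1 and Zfp783 higher and Zc3hav1 lower), and within 10 Mb of Eed 3 of 128 (2.34%, Uvrag higher, Acer3 and Prcp lower), near the 1.70% of all genes. None of the 4 called genes lay in either window. Trim12a, low on the Eed-null arrays alone, lies on chromosome 7, and linkage to Eed beyond 10 Mb was not examined.

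**Figure D4:**
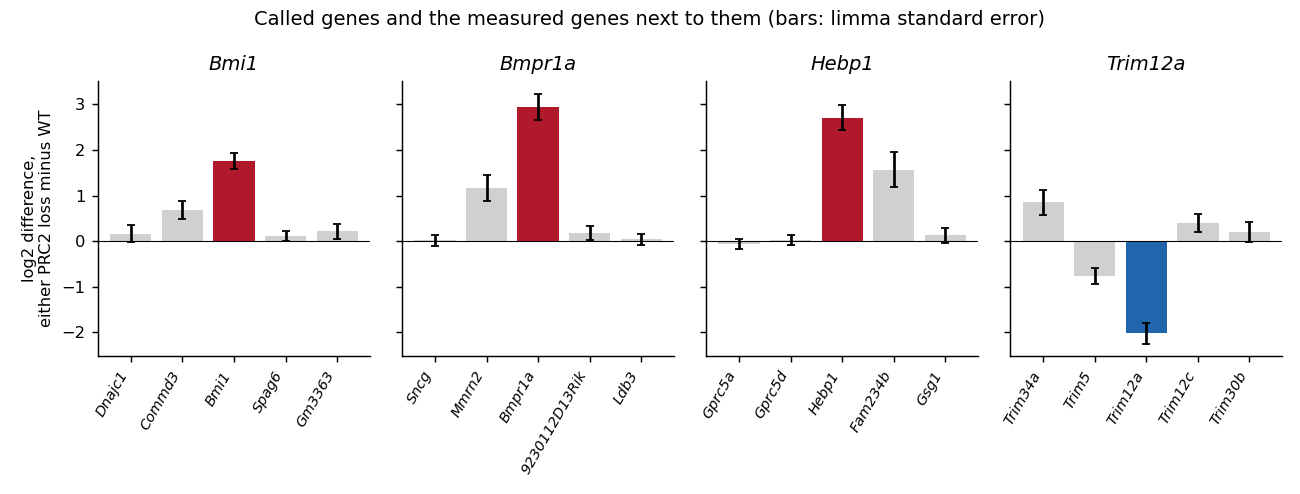
Pooled log2 difference of null minus WT (y axis) for each called gene (coloured bar) and the 2 measured genes on each side of it in chromosome order (grey), with bars for the limma standard error. Commd3, Mmrn2 and Fam234b, on 1 side of Bmi1, Bmpr1a and Hebp1, stand at 0.68, 1.17 and 1.57.

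The gene lists are described in order of their role, from Polycomb itself to its known targets and then to cell state. For scale, the median difference of all genes was 0.0022, 0.0195% were called, 3.28% were higher and 3.37% lower at an unadjusted p under 0.05, and 1.70% had no overlap. No list test was made, and list members were chosen with earlier results of these data known. Of 12 PRC2 genes, 11 had lower means in the null arrays (8 after quantile normalization, median -0.12), 2 of them at an unadjusted p under 0.05, the deleted genes Ezh2 and Eed themselves, and none was called or free of overlap. Without WT replicate 3, 6 of the 12 had lower means (median -0.054). Of 23 PRC1 genes, Bmi1 alone was called, and 4 were higher and 1 lower at an unadjusted p under 0.05 (median 0.16). Rnf2, the ubiquitin ligase to which Bmi1 binds, differed by 0.56 (limma adjusted p = 0.727, with -0.18 to 0.11 for its other probe sets), and Cbx2, a chromodomain subunit, by -0.38 (adjusted p = 0.737). The 5 genes of H3K27 demethylases and acetyltransferases had a median of 0.04 and no member at an unadjusted p under 0.05.

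Most lists of genes that Polycomb is known to silence had medians near 0. The CDK inhibitors stood apart, though not without WT replicate 3 and Eed-null replicate 1 together. The 67 developmental regulators had a median of 0.02, with 4 higher and 1 lower at an unadjusted p under 0.05. Tcf24 was the only one without overlap. Dmrt3, a developmental factor with a DM domain, read 6.22, 6.76 and 6.85 in WT, against 6.95, 6.61, 6.96 and 6.39 with Ezh2 lost and 11.74, 10.24 and 10.13 with Eed lost. Its pooled difference of 2.11 (limma adjusted p = 0.12) thus averaged 0.12 with 4.09. The other probe sets of Dmrt3 gave pooled differences of 0.29, 0.71 and 0.05. Of 25 genes of Hox clusters B, C and D (median 0.06), 3 were higher at an unadjusted p under 0.05, and Hoxb4, known from stem cell expansion, read 8.86, 7.53 and 8.15 in WT, against 8.67 to 9.37 with Ezh2 lost and 9.11 to 9.80 with Eed lost, a difference of 1.08 (adjusted p = 0.494) with overlap at 1 array. Hoxc8, at a level of 3.91 to 4.56, was the only one above every WT array (0.27). The 27 imprinted genes had a median of 0.07 with 1 higher at an unadjusted p under 0.05. Of 7 CDK inhibitor genes Cdkn1c alone reached it, at 0.78. Their median of 0.25 was 0.15 without WT replicate 3, and -0.03 without that array and Eed-null replicate 1. Cdkn2a, the best known Polycomb target among them, read 6.50, 6.96 and 6.80 in WT, against 6.66, 7.24, 8.26 and 7.14 with Ezh2 lost and 7.07, 7.95 and 7.13 with Eed lost, overlapping at 1 null array, with a difference of 0.60 (SE 0.31, adjusted p = 0.804).

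The BMP and TGF-beta list of 39 genes (median 0.05) held 1 call, Bmpr1a, and 3 genes above every WT array, Bmpr1a, Bmpr2 and Id2. At an unadjusted p under 0.05, 6 were higher, Bmpr1a among them, and 1 was lower. The higher share was 15.4% against 3.28% of all genes, a description only, since the list was chosen with earlier results known. Id2, an inhibitor of helix-loop-helix factors and a target of BMP signalling, read 9.54, 9.78 and 7.41 in WT, against 10.22, 9.90, 9.95 and 10.39 with Ezh2 lost and 11.09, 9.92 and 10.83 with Eed lost. WT replicate 3 was far below the other WT arrays, and the difference of 1.45 (limma adjusted p = 0.597) was 0.59 without that array and Eed-null replicate 1. The signal transducer Smad3 (0.83) and the inhibitory Smad7 (0.58) overlapped with WT. The BMP targets Id1 (0.06) and Id3 (-0.07), the inhibitory Smad6 (0.04) and the type I receptor Acvr1 (-0.05), chosen after their values were seen, differed by less than their standard errors.

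The 44 Wnt genes had a median of 0.05 (0.0018 without WT replicate 3, and -0.018 without that array and Eed-null replicate 1). At an unadjusted p under 0.05, 2 of them were higher and 1 lower. Rspo1, a secreted agonist of Wnt signalling, differed by 1.51 (limma adjusted p = 0.108) as the average of 0.27 in Ezh2-null and 2.76 in Eed-null leukaemia. Axin2, a target of the pathway, was the only member above every WT array, by 0.20. Of 21 haem genes, Hebp1 alone was called or reached an unadjusted p under 0.05 (median 0.06). The MLL-AF9 programme of 24 genes had a median of -0.03 (0.033 without WT replicate 3, and 0.10 without that array and Eed-null replicate 1). It held 2 higher and 2 lower members at an unadjusted p under 0.05 and none without overlap. Its smallest p-values were those of Cdk6, a cell cycle kinase (-0.42), Runx2, a Runt-domain factor (0.47, with -0.33 and -0.06 for its other probe sets), and Eya1, a transcriptional coactivator (-0.55), with limma adjusted p-values of 0.707 to 0.75. Hoxa9 differed by -0.31 and Meis1 by 0.24, with adjusted p-values of 0.865 and 0.89.

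Neither the granulocyte nor the monocyte list held a call by limma's adjusted p. In bulk RNA of sorted cells, fewer cells of a type and less RNA per cell cannot be told apart. Of 28 granulocyte genes, 25 had higher means in the null arrays (median 0.43) and 3 were higher at an unadjusted p under 0.05. The mean level of the list was 12.16, 12.10 and 10.81 on the WT arrays, 11.89 to 12.43 on the Ezh2-null and 11.79 to 12.31 on the Eed-null arrays, so that WT replicate 3 alone lay below the rest. Without it, 15 of the 28 had higher means and the median was 0.012. Olfm4, a granule protein of neutrophil precursors, was above every WT array, at 0.79 (limma adjusted p = 0.727), while Trem1 (0.62) and Pglyrp1 (0.73) overlapped. Of 29 monocyte and macrophage genes, 21 had lower means (median -0.14), and 26 without WT replicate 3 (median -0.37). In the comparison of all arrays, 4 were lower at an unadjusted p under 0.05 (13.8%, against 3.37% of all genes). Ccr2, the receptor that draws monocytes out of marrow, had the most negative log2 difference of all genes tested, and read 11.23, 11.18 and 9.96 in WT, against 9.67, 9.003, 9.51 and 9.67 with Ezh2 lost and 5.61, 9.04 and 8.62 with Eed lost. Its difference was -2.18 (adjusted p = 0.514), and without WT replicate 3 and Eed-null replicate 1 it was -2.06 (adjusted p = 0.0269). Cd68, a macrophage glycoprotein, was also below every WT array (-0.89), and Lpl, lipoprotein lipase, differed by -1.59 with overlap at Eed-null replicate 2. The mean level of the monocyte list ran from 8.67 to 9.48 in WT, against 8.56 to 9.29 with Ezh2 lost and 8.38 to 8.95 with Eed lost.

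Of 36 cell cycle genes, 31 had lower means in the null arrays (median -0.24) and 5 were lower at an unadjusted p under 0.05, while without WT replicate 3 the median was -0.12 and without WT replicate 2 it was -0.45. The mitotic kinesins Kif11 (-0.87) and Kif23 (-0.82) led them, and Kif23 averaged -0.14 in Ezh2-null and -1.50 in Eed-null leukaemia. The other probe sets of Kif23 gave -0.25 and 0.28, while those of Kif11 gave -0.90 and -0.84. Of 26 Myc and nucleolar genes, 18 had lower means (median -0.22) and 2 were lower at an unadjusted p under 0.05, among them Polr1b, a subunit of RNA polymerase I (-0.51). The mean level of this list was 9.86, 9.45 and 10.85 on the WT arrays against 9.56 to 10.37 on the null arrays. Without WT replicate 3, which lay above all others, 21 of the 26 had higher means and the median was 0.19, so the direction of this list turns on 1 array. Higher means prevailed in the p53 list (18 of 23, median 0.15), where Zmat3, a p53-induced RNA-binding protein, was above every WT array (0.62), in the interferon list (20 of 27, median 0.26, 5 higher at an unadjusted p under 0.05, among them Rsad2 at 0.79, Ifit3 at 0.93 and Rtp4 at 0.92) and in the immediate early list (19 of 25, median 0.38, 2 higher). Without WT replicate 3 these medians were 0.19, 0.18 and 0.14. The mean level of each of these lists overlapped with WT. That of the immediate early list was lowest on Ezh2-null replicate 3 (8.29, against 8.70 to 9.01 in WT). That of the interferon list was 7.51 on Ezh2-null replicate 2, against 7.49 to 7.94 in WT. Rsad2, Ifit3 and Rtp4 also overlapped with WT. Of 21 antigen presentation genes (median 0.09, and 0.0037 without WT replicate 3), 6 were higher and 1 lower at an unadjusted p under 0.05. H2-Q7, a class Ib molecule, led with 2.64 (limma adjusted p = 0.157), the average of 1.37 in Ezh2-null and 3.90 in Eed-null leukaemia. Its signal cannot be told from that of near-identical H2-Q genes. Of 23 apoptosis genes (median -0.01, and 0.014 after quantile normalization or 0.04 without WT replicate 3), 2 were lower at an unadjusted p under 0.05, and Apaf1, the core of the apoptosome, was below every WT array (-0.56, adjusted p = 0.366).

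Markers of other cells gave 1 call, Bmi1, which the list of 24 stem and progenitor genes shares with PRC1 (median 0.10). Lists of erythroid (17 genes), megakaryocyte (15), B cell (19), T and NK cell (22), eosinophil, basophil and mast cell (18) and stromal (17) genes had medians of -0.04 to 0.11 and held at most 3 members at an unadjusted p under 0.05 each. Cd72, a B cell surface protein, was above every WT array, at 0.63, while the B cell marker Ms4a1 was near the bottom of the scale on all arrays (4.82 to 5.04) and 0.12 lower on the log2 scale in the null arrays (-0.12), also without overlap.

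**Figure D5:**
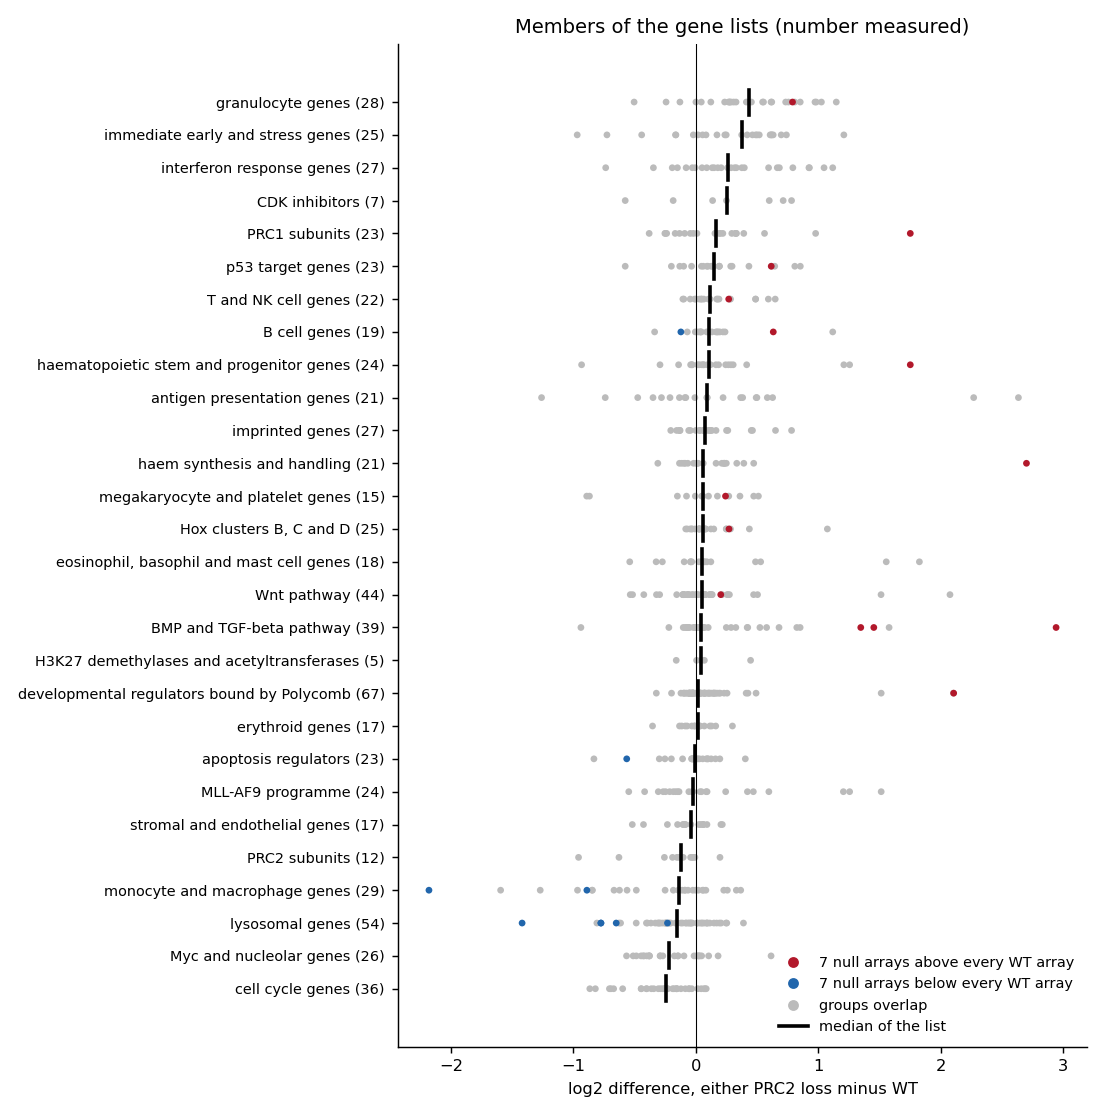
Pooled log2 difference of null minus WT (x axis) for each measured member of the gene lists (rows, with the number measured), red or blue where all 7 null arrays lay above or below every WT array, with a black line at the median of the list. Granulocyte genes have the highest median (0.43, and 0.012 without WT replicate 3) and cell cycle genes the lowest (-0.24).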

How the data were processed

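RNA of 10 arrays was measured. Intensities were deposited by the authors after RMA (named in the submitters' processing notes; no version is given in the sources used here). No value fell below 1 and the scale was linear, so log2 was taken after a floor of 1. Probe sets were named from a second deposited table of intensities (batch-adjusted with ComBat, per the file headers), used for symbols alone. Its 9 columns of other samples were not used. Control probe sets (64), those without a symbol (5820), with several (1399) or with a date in its place (56) were left out, 3656 symbols were updated and 3018 kept as given. The probe set with the highest mean stood for each of 20564 genes.

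limma 3.58.1 in R 4.3.3 fitted 1 coefficient per genotype over all 10 arrays (eBayes with trend, two-sided), and the contrast was the mean of the Ezh2-null and Eed-null coefficients minus WT. P-values had Benjamini-Hochberg adjustment across the 20564 genes, measure only the spread between these samples and were called under 0.05. The number of arrays limits the precision. The code was tested on simulated data.

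Genes named were the PRC2 core, Bmi1 and Cdkn2a, called genes, the next in p without overlap until 20, of each list the members smallest in p (at most 3), and the Trim5 group. Others named for their neighbours, their second readings, their lack of overlap or their role were chosen after their values were seen. The members and the 27 lists (680 genes, from general knowledge) were chosen with earlier results of these data known. Gene order and promoters came from RefSeq (GRCm38.p6), in which 18149 genes were placed. Promoters of 71.43% of the 350 genes were matched, so a check of CG content over the set was void. Alternatives were the weighting of genotypes, the replicate number as a block, other probe set rules, a filter on dim genes, quantile normalization, eBayes without trend, array weights, a granulocyte covariate, an offset of 32 and each array left out. A result on an item withheld for evaluation is not reported here.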

Additional observations from a re-analysis of the deposited data

Results flagged for a closer look

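6 genes named above differed between the null genotypes by the direct test of Eed-null minus Ezh2-null, which uses no WT array. Trim12a differed by -4.27 on the log2 scale (limma adjusted p = 0.000138), Trim30d by -3.18 (adjusted p = 0.00342), Trim5 by -1.88 (adjusted p = 0.00342) and Eed itself by -1.86 (adjusted p = 0.00342), and in each all 3 Eed-null arrays lay below all 4 Ezh2-null arrays. Dmrt3 (3.97) and Rspo1 (2.49) were higher in Eed-null leukaemia (both adjusted p = 0.00342). Among 104 genes checked, 5 had an Ezh2-null array far from the other 3 by Dixon's test at 95%, which flags about 1 group in 20 by chance. These were Eya1 (10.08 in replicate 2), Hoxc8 (4.27 in replicate 4), the haem oxygenase gene Hmox2 (11.47 in replicate 1), Cd68 (9.43 in replicate 2) and the nucleolar gene Bop1 (9.34 in replicate 2).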

How the results depend on the processing

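Bmi1, Bmpr1a and Hebp1 kept their call in 18 of 21 alternatives each, with differences of 1.61 to 1.86, 1.75 to 3.11 and 2.41 to 3.09. Trim12a kept its call in 12 of 21. Deviations of same-numbered arrays correlated at -0.23 to 0.36. The labels do not say what the replicate numbers mean, so whether they pair the arrays is not known. With the replicate block, 0 genes were called by limma (1123 at an unadjusted p under 0.05), 0 of them without overlap, and 4 between the null genotypes. The 4 calls became 7 with the mean of all probe sets, 8 with each probe set separately, 7 with the granulocyte covariate and 7 without WT replicate 3 and Eed-null replicate 1 together, an alternative chosen after seeing the data. The calls without overlap (3) became 5, 6, 4 and 5 in these settings, and the 16 calls between the null genotypes became 28, 23, 25 and 44, and 50 with array weights. Leaving out 1 array at a time gave 0 to 6 calls, 0 to 4 without overlap and 13 to 36 between the null genotypes. Without WT replicate 2 there were 0 calls (1388 at an unadjusted p under 0.05), and without WT replicate 1 only Gphn was called. Without Eed-null replicates 1 and 3 in turn, 36 and 28 genes were called between the null genotypes. Single genes kept direction and call in 1033 of 1065 values over 51 genes, with 18 calls lost and 5 gained. The 18 lost calls were those of the 4 called genes, 3 each for Bmi1, Bmpr1a and Hebp1 and 9 for Trim12a, of 21 alternatives each. Most of the 51 genes were not called, and for their values staying uncalled with the same sign counted as kept. The 9 that changed sign were of genes not called, namely Ezh1 with quantile normalization (0.015) and without WT replicate 1 or Ezh2-null replicate 2 (-0.11 to 0.075 with 1 array left out), Suz12 with the granulocyte covariate (0.0037), without WT replicate 3 (-0.21 to 0.059 with 1 array left out) and without the pair of arrays (0.019), Trim30b with the granulocyte covariate (-0.0029), and Trim6 without WT replicate 3 (-0.043 to 0.20 with 1 array left out) and without that pair (-0.061). Lists with quantile normalization and with arrays left out were also examined, as alternatives chosen after seeing the data. The causes of these changes were not tested. Dim genes are limited by background signal, for which these values hold no detection call.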

Other observations

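Lysosomal genes were listed after their values were seen. Of 54 measured, 37 had lower means in the null arrays (median -0.16), 7 were lower and 0 higher at an unadjusted p under 0.05, and 0 were called by limma, with 5 below every WT array (9.26%, against 0.875% of all genes). Besides Ctns these were Scpep1, a serine carboxypeptidase (-1.42), Ctsa, the protective protein of the lysosome (-0.78), Spns1, a lysosomal lipid transporter (-0.65), and Asah1, acid ceramidase (-0.23). Ctsa read 10.27, 10.55 and 10.78 in WT, against 9.98, 9.76, 9.80 and 9.51 with Ezh2 lost and 9.73, 9.94 and 9.58 with Eed lost. The mean level of the list was 9.78 to 9.93 in WT, against 9.60 to 9.86 with Ezh2 lost and 9.43 to 9.84 with Eed lost, so the groups overlapped. Monocyte and macrophage genes, some of which are lysosomal, also had lower means, and their part in the result was not tested.

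Other chromatin genes without overlap, picked after their values were seen, were Tet1, which oxidises methylated cytosine (0.93), and the H3K9 methyltransferases Suv39h1 (-0.56) and Ehmt2 (-0.42), with limma adjusted p-values of 0.417, 0.506 and 0.769. Suv39h1 read 9.42, 9.39 and 9.38 in WT, against 8.96, 9.12, 8.996 and 8.72 with Ezh2 lost and 8.57, 9.05 and 8.58 with Eed lost. The interleukin-18 receptor gene Il18r1 read 8.27, 7.64 and 5.51 in WT, and every null array lay above these. WT replicate 3 was far below the other WT arrays, and the difference of 2.37 (limma adjusted p = 0.366) was 1.32 without that array and Eed-null replicate 1.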
